A study of Mus musculus with 2 samples.

Results

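The genes described here are 9 of the 32285 in the tables: the gasdermins Gsdmd and Gsdme, the caspase genes Casp1, Casp4 and Casp8, the adaptor gene Pycard, and the sensor genes Nlrp3, Aim2 and Nlrc4. They were chosen by symbol, and all 9 had a row. Single-cell RNA sequencing with 10x Genomics 3′ chemistry was run on pancreatic tumours grown in mice from KPC cells, a mouse pancreatic cancer line, implanted orthotopically. The groups were KPC-shV, with a control hairpin, and KPC-shZEB1, with a hairpin against Zeb1, at 1 tumour and 1 library each. The study describes gemcitabine treatment of these mice, which the sample labels do not mention. Its methods name C57BL/6J, BALB/c and NSG mice of 4 to 6 weeks without saying which strain carried these tumours. Its text describes the mice of this experiment as immunocompetent. Mouse, tumour, library and hairpin form 1 split and cannot be told apart, so no test between groups was possible. Each value is set beside an interval for counting error only.

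These genes form the route to pyroptosis, a lytic and inflammatory cell death. Sensors of the cytosol assemble an inflammasome: NLRP3 answers membrane and ion stress, AIM2 binds DNA, and NLRC4 acts with NAIP proteins on bacterial flagellin and secretion needles. ASC, the product of Pycard, links sensors to caspase-1, which matures IL-1β and IL-18 and cuts gasdermin D to free its pore-forming end. Mouse caspase-11, encoded by Casp4, is a receptor for intracellular lipopolysaccharide and cuts gasdermin D as well. Caspase-8 drives death-receptor apoptosis, restrains necroptosis and can cut gasdermins, of which gasdermin E, from Gsdme, is another pore former. The pathway is best known from macrophages, and the study asked about pyroptosis of the tumour cells, so both kinds of cell are described. A transcript level does not show whether a protein was cut.

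After filtering, 11398 cells with a median of 3720.0 UMIs (unique molecular identifiers, 1 per captured transcript) were kept in the KPC-shV-labelled library, and 12104 with a median of 4252 in the KPC-shZEB1-labelled library. No cell annotation was used, so the cells were clustered again and named from marker genes into 10 classes. A cluster led by Prg4 and Grem1, with 507 and 213 cells, is a class of its own and is not counted in the tumour-like cells. Granulocyte-like cells were 60.2% and 35.7% of cells, monocyte-macrophage-like cells 14.1% and 20.7%, and tumour-like cells 8.66% and 10.1%. Levels are in CPM, the UMI count of a gene scaled to the total of its class in its library, and brackets hold the exact Poisson 95% interval. Ratios are the KPC-shZEB1-labelled over the KPC-shV-labelled library, with an exact 95% interval given both counts. Tumour-like cells held 130.2 (125–135) and 174 (169–179) CPM of Zeb1, the target of the hairpin, and the ratio was 1.34 (1.27–1.40). With the estimated background RNA subtracted the levels came to 101 and 121 CPM (ratio 1.20), and before subtraction the ratio was also above 1 in granulocyte-like (1.49) and monocyte-macrophage-like cells (1.55). Zeb1 was thus not lower in the KPC-shZEB1-labelled library and does not bear out the labels, so the libraries are called by their labels and no ratio is read as an effect of less Zeb1. The 2 libraries had 46 cell barcodes in common.

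Free RNA reached every class. Tumour-like cells held 333 and 127 CPM of S100a8, a granulocyte gene, and from such genes the background was estimated at 14.5% and 18.5% of tumour-like UMIs. The make-up of this background differed: in tumour-like cells 11 of 11 monocyte-macrophage markers were higher in the KPC-shZEB1-labelled library, their sum going from 892 to 1919.6 CPM with none at 0. Granulocyte markers went the other way, with 1 of 8 higher and a sum of 1359 and 649 CPM. The part of these shifts in the ratios below was not tested, and for some members the ratio after subtraction of the estimated background is given beside the measured one.

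Casp4 and Nlrp3 were the members highest in granulocyte-like cells, and their levels ran together across clusters (Pearson r = 0.79 over 25 clusters, which share 2 libraries and 1 background). Their promoters, 250 bases before to 50 after the start site, are shown for that reason. The sequences are from RefSeq on GRCm38.p6, and capitals mark the only match to a kappaB core, GGGA followed by any 4 bases and CC, a form of the site bound by NF-kappaB. Casp4 lies on the plus strand of chromosome 9 and the window is chr9:5308599-5308898. Nlrp3 lies on the plus strand of chromosome 11 and the window is chr11:59541319-59541618.
Casp4: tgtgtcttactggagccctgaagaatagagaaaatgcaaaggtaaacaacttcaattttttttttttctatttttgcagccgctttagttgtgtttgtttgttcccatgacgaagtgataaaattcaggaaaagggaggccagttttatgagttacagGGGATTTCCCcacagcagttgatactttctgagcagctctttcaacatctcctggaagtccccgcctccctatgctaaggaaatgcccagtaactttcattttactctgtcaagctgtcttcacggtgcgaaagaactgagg
Nlrp3: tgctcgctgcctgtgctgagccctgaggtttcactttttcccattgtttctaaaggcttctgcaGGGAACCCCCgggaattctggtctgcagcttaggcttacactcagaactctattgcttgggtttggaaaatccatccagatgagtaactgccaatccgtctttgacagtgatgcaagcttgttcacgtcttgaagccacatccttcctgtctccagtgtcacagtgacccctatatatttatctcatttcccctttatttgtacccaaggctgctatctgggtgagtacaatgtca

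The match ran from base -92 to -83 before the Casp4 start site and from -186 to -177 before that of Nlrp3. Both strands were searched, and 20.7% of 32851 promoters in the table held this core. It was found in no other start site of the members, apart from a second Casp4 promoter that overlaps the first and holds the same copy. For 8 of the 9 genes a promoter was listed, 10 promoters in all, and none was listed for Gsdmd. The cores of the interferon-stimulated response element (GAAA, any 2 bases, GAAA) and of the interferon gamma-activated site (TTC, any 3 bases, GAA) were in none of these windows and in 3.44% and 8.30% of all promoters. A match is a description of letters, and its absence says only that these letters are not in this window.

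On GRCm38 the genes lie apart, except that Casp1 (chr9:5298517-5307265) and Casp4 (chr9:5308828-5336783) are neighbours on the plus strand. Gsdme, Aim2 and Pycard each overlap a gene on the opposite strand (Mpp6, Cadm3 and Gm45205), and Casp8 and Nlrc4 overlap Gm37760 and a processed pseudogene on their own strand. UMIs of the last 2 could be shared with the overlapping feature. Whether intronic reads were counted is not given in the sources used here.

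**Figure D1:**
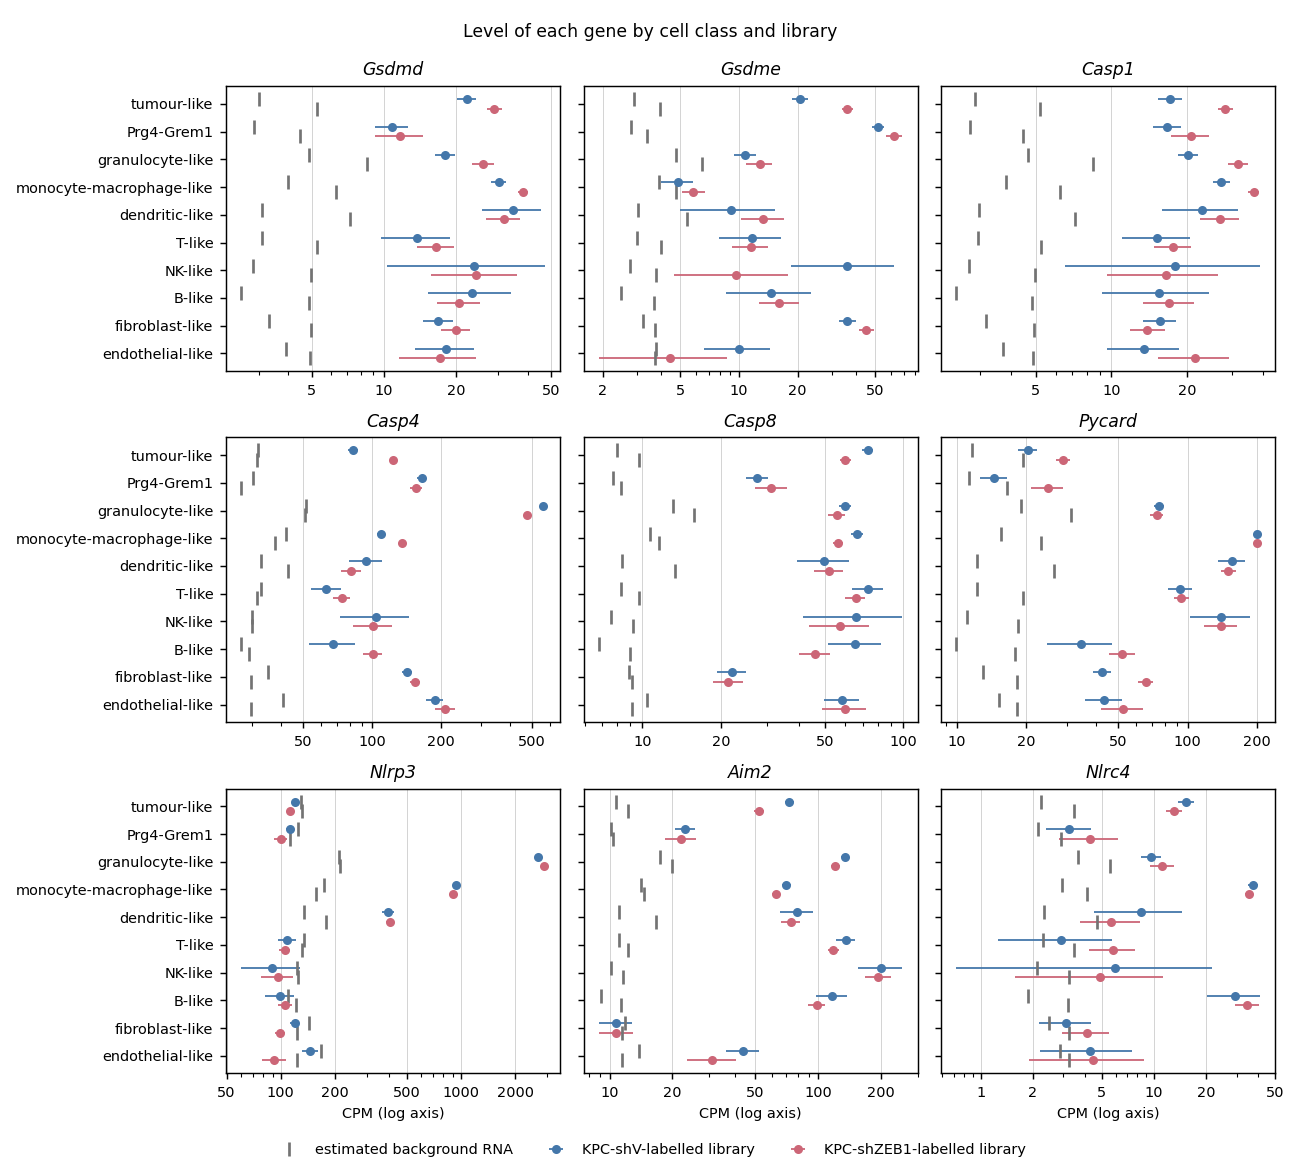
Level of each of the 9 genes (CPM, log axis) in 10 cell classes of the KPC-shV-labelled (blue) and KPC-shZEB1-labelled (red) libraries, 1 library each; bars are exact Poisson 95% intervals and grey ticks the estimated background RNA. Nlrp3 stood at 2699 and 2903 CPM in granulocyte-like cells and at or under its grey tick in every class outside the myeloid ones.

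Gsdmd, the executioner of inflammasome pyroptosis, was present at a low level in every class. In tumour-like cells the level was 22.2 (20.2–24.3) and 28.9 (27.0–31.0) CPM, from 448 and 807 UMIs, a ratio of 1.31 (1.16–1.47). In monocyte-macrophage-like cells it was at 30.1 (27.9–32.4) and 38.1 (36.2–40.1) CPM, a ratio of 1.27 (1.16–1.39). The granulocyte-like levels were 18.0 (16.3–19.8) and 26.0 (23.3–28.9) CPM, a ratio of 1.45 (1.25–1.68). In these 3 classes the intervals of the libraries did not meet, and the KPC-shZEB1-labelled library was the higher one. With background subtracted the ratios were 1.24, 1.22 and 1.34 in tumour-like, monocyte-macrophage-like and granulocyte-like cells. Relative to the median of all genes in the class the granulocyte ratio was 1.23. The lowest level was in the cluster led by Prg4 and Grem1, with 10.8 and 11.7 CPM, where the ratio of 1.08 (0.809–1.43) became 0.906 with background subtracted. Among neighbours in the order of the 10 classes, all 9 pairs overlapped in both libraries, so no class was set apart from the next. Classes further apart in the order did differ: the intervals of monocyte-macrophage-like cells and of the Prg4-Grem1 cluster did not meet in either library. Its highest level in a cluster was in the dendritic-like cluster led by Strip2 (37 and 102 cells), with 60.7 (39.3–89.7) and 47.9 (36.7–61.6) CPM.

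Gsdme followed another pattern, with its highest levels in the Prg4-Grem1 cluster and fibroblast-like cells and low levels in macrophages and endothelium. The Prg4-Grem1 cluster held 51.8 (48.2–55.7) and 62.4 (56.4–68.9) CPM, and fibroblast-like cells 36.0 (32.5–39.7) and 45.0 (41.1–49.2). These were the first and second of the 10 classes in the KPC-shV-labelled library and again in the KPC-shZEB1-labelled one. Monocyte-macrophage-like cells held 4.85 (4.00–5.83) and 5.84 (5.11–6.66) CPM, little above the estimated background of 3.87 and 4.73 CPM. Endothelial-like cells held 9.96 (6.62–14.4) and 4.42 (1.91–8.71) CPM, the lowest level in the KPC-shZEB1-labelled library. In tumour-like cells Gsdme was at 20.6 (18.7–22.7) and 35.9 (33.7–38.2) CPM, from 417 and 1000 UMIs, a ratio of 1.74 (1.55–1.95). This ratio rested on 1 cluster, described below. NK-like cells gave 35.8 (18.5–62.5) and 9.70 (4.65–17.8) CPM from only 12 and 10 UMIs, too few to order them. The Prg4-Grem1 cluster may itself hold tumour cells. Its Cdkn2a (329 and 447 CPM) and Hmga2 (673 and 613) were nearer to tumour-like cells (236 and 380.4, 695 and 621) than to fibroblast-like cells (27.0 and 30.4, 48.4 and 45.8). Its Epcam, at 22.1 and 28.1 CPM, was far under the tumour-like 541 and 458. The high Gsdme of this cluster is therefore not set outside the tumour cells.

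Casp1 resembled Gsdmd in setting no class apart from the next: all 9 neighbouring pairs of classes overlapped in both libraries. The intervals of monocyte-macrophage-like and fibroblast-like cells, further apart in the order, did not meet in either library. Tumour-like cells held 17.1 (15.3–19.0) and 28.3 (26.4–30.4) CPM, a ratio of 1.66 (1.46–1.89), and granulocyte-like cells 20.1 (18.3–22.0) and 31.8 (28.9–35.0) CPM, a ratio of 1.58 (1.39–1.81). In monocyte-macrophage-like cells the levels were 27.3 (25.2–29.5) and 36.7 (34.8–38.7) CPM, a ratio of 1.35 (1.23–1.48). In these 3 classes the KPC-shZEB1-labelled library was again the higher one, with intervals that did not meet. By contrast, T-like cells (15.2 and 17.5 CPM), B-like cells (15.5 and 17.0 CPM) and fibroblast-like cells (15.6 and 13.9 CPM) had intervals that overlapped between libraries. After subtraction of background the ratios were 1.63, 1.51 and 1.30 in tumour-like, granulocyte-like and monocyte-macrophage-like cells.

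Casp4, the lipopolysaccharide receptor, was highest in granulocyte-like cells. These held 560.0 (550.4–569.8) and 478 (466–490.0) CPM, a ratio of 0.854 (0.828–0.880), and with each cell thinned to 1000 UMIs 37.6% and 32.4% of them had a Casp4 UMI. In thinned T-like cells, a class with low Casp4, the shares were 4.17% and 6.59%. After the granulocytes came endothelial-like cells (188 and 209 CPM), the Prg4-Grem1 cluster (165 and 155 CPM), fibroblast-like cells (142 and 154 CPM) and monocyte-macrophage-like cells (109 and 135 CPM), in that order in both libraries. Macrophages were not uniform, and the Fcna-led cluster described below held more than fibroblast-like cells in the KPC-shZEB1-labelled library. In the KPC-shV-labelled library the intervals of that cluster and of fibroblast-like cells overlapped. Tumour-like cells held 82.6 (78.7–86.7) and 124 (120.4–129) CPM, a ratio of 1.51 (1.42–1.60), opposite in direction to the granulocyte ratio. With background subtracted the tumour-like ratio was 1.82 and the granulocyte ratio 0.840. The tumour-like ratio was 1.22 without the Ralyl-led cluster described below, and 1.11 with the Prg4-Grem1 cluster included.

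Casp8, the apoptosis initiator, was lowest in fibroblast-like cells and the Prg4-Grem1 cluster. T-like cells held 73.1 (63.4–83.9) and 65.6 (60.0–71.6) CPM, and tumour-like cells 73.0 (69.3–76.8) and 59.9 (57.0–62.8). Fibroblast-like cells held only 22.0 (19.3–24.9) and 21.2 (18.6–24.2) CPM, and the Prg4-Grem1 cluster 27.5 and 31.2 CPM. The KPC-shZEB1-labelled library was lower in tumour-like cells (ratio 0.820, 0.764–0.880, but 1.01 with the Prg4-Grem1 cluster included), monocyte-macrophage-like cells (0.845, 0.791–0.902) and B-like cells (0.701, 0.536–0.925). In granulocyte-like cells the ratio was 0.930 (0.850–1.02), which was within counting error.

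Pycard, the ASC adaptor, was highest in myeloid, NK-like and T-like cells. Monocyte-macrophage-like cells held 200.0 (194–206) and 199 (194–203) CPM, dendritic-like cells 156 (136–177) and 150.3 (139–162), and NK-like cells 140.1 (103–186) and 139.7 (118–164). T-like cells (93.0 and 94.1 CPM) and granulocyte-like cells (75.3 and 73.6 CPM) followed in both libraries. B-like cells were lower, with 34.5 (24.6–46.9) and 52.0 (45.5–59.1) CPM, next to endothelial-like cells at 43.4 and 52.5 CPM. In the first 5 of these classes the interval of the ratio held 1, although the granulocyte ratio of 0.978 became 0.752 with background subtracted. The endothelial-like ratio was 1.21 (0.915–1.59), also within counting error. The KPC-shZEB1-labelled library was higher in 4 classes: the ratio was 1.51 (1.07–2.16) in B-like cells, 1.54 (1.37–1.74) in fibroblast-like cells at 42.8 and 66.0 CPM, 1.71 (1.38–2.11) in the Prg4-Grem1 cluster at 14.5 and 24.8 CPM, and 1.42 (1.26–1.60) in tumour-like cells at 20.3 (18.4–22.4) and 28.8 (26.9–30.9) CPM. In tumour-like cells the estimated background was itself 11.7 and 19.4 CPM, and after its subtraction the ratio was 1.11. In the Prg4-Grem1 cluster it was 2.54 after subtraction, from 3.24 and 8.23 CPM. In fibroblast-like cells, where monocyte-macrophage markers summed to 766 and 1965 CPM, the ratio after subtraction was 1.61.

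Of the 10 classes, the 3 myeloid ones held Nlrp3 above the estimated background. Granulocyte-like cells held 2699 (2678–2721) and 2903 (2874–2932) CPM, monocyte-macrophage-like cells 937 (925–949.7) and 903 (894–913), and dendritic-like cells 395 (364–428) and 403 (385–422). No intervals met between these 3 classes. The granulocyte ratio was 1.08 (1.06–1.09), and relative to the median of all genes in the class it was 0.911. In cells thinned to 1000 UMIs, 77.2% and 79.6% of granulocyte-like, 54.0% and 53.2% of monocyte-macrophage-like, and 27.9% and 28.4% of dendritic-like cells had an Nlrp3 UMI. In thinned B-like cells, which serve as a class without the gene, the shares were 8.65% and 9.30%. The 7 other classes, tumour-like cells included at 120.1 (115–125) and 113 (109–117) CPM, were as whole classes not above the background estimated for them, and their Nlrp3 could not be told from free RNA. Smaller groups of cells within or outside the classes stood higher. Regulatory T-like cells (61 and 124 cells) held 200.1 (172–231) CPM over both libraries, above the T-like background of 134 and 131, and ILC2-like cells led by Il5 (7 and 20 cells) held 442 (339.9–566). Sub-clusters given the same ILC2 name but led by Hgf (1 and 8 cells) and by Mcpt1 (1 and 7 cells) held 2449.6 (2013–2952) and 336 (188–554) CPM. Their names rest on few cells. The Mcpt1-led one had Mcpt4 and Tpsb2, markers of mast cells, among its leading genes, which goes against its ILC2 name. No mast cell name was open to these sub-clusters. Thinned tumour-like cells had an Nlrp3 UMI in 12.2% and 12.1%.

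Aim2, the DNA sensor, was highest in NK-like cells, followed by T-like and granulocyte-like cells. NK-like cells were highest at 199.7 (155–254) and 194 (168–223) CPM, and T-like cells held 136 (122–150.2) and 118 (111–126), close to granulocyte-like cells at 134 (129–138) and 121 (115–127). B-like cells followed with 116 (97.5–138) and 98.5 (89.6–108) CPM. Fibroblast-like cells were lowest at 10.7 CPM in both libraries, not above their background of 11.8 and 11.5 CPM. Tumour-like cells held 72.7 (69.1–76.6) and 52.2 (49.5–54.9) CPM, about the level of monocyte-macrophage-like cells at 70.5 and 62.5 CPM, and the tumour-like ratio was 0.717 (0.667–0.772). With background subtracted it was 0.644. Among sub-clusters of T-like and NK-like cells, with both libraries summed, levels were uneven. The NK-like ones led by Gzmc and by Klra4 held 212 (172–259) and 187 (159.8–217) CPM. A T-like one led by Klra6 and Klra1 held 182 (162–203) and the CD4 T-like one led by Cd40lg 121 (100.0–146). The T-like ones led by Il17a and by St8sia6 held only 48.9 (31.0–73.4) and 38.9 (26.0–55.8).

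Nlrc4 was sparse and highest in macrophages and B cells. Monocyte-macrophage-like cells held 37.3 (34.9–39.9) and 35.2 (33.3–37.1) CPM, and B-like cells 29.3 (20.3–40.9) and 34.5 (29.3–40.4), whose intervals overlapped. Tumour-like cells came next with 15.3 (13.7–17.1) and 13.1 (11.8–14.5) CPM, and granulocyte-like cells held 9.63 (8.40–11.0) and 11.1 (9.42–13.1). Granulocytes, highest for Nlrp3, were therefore low for Nlrc4. In T-like cells the ratio was 2.00 (0.935–4.92) from 8 and 45 UMIs, which was within counting error.

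**Figure D2:**
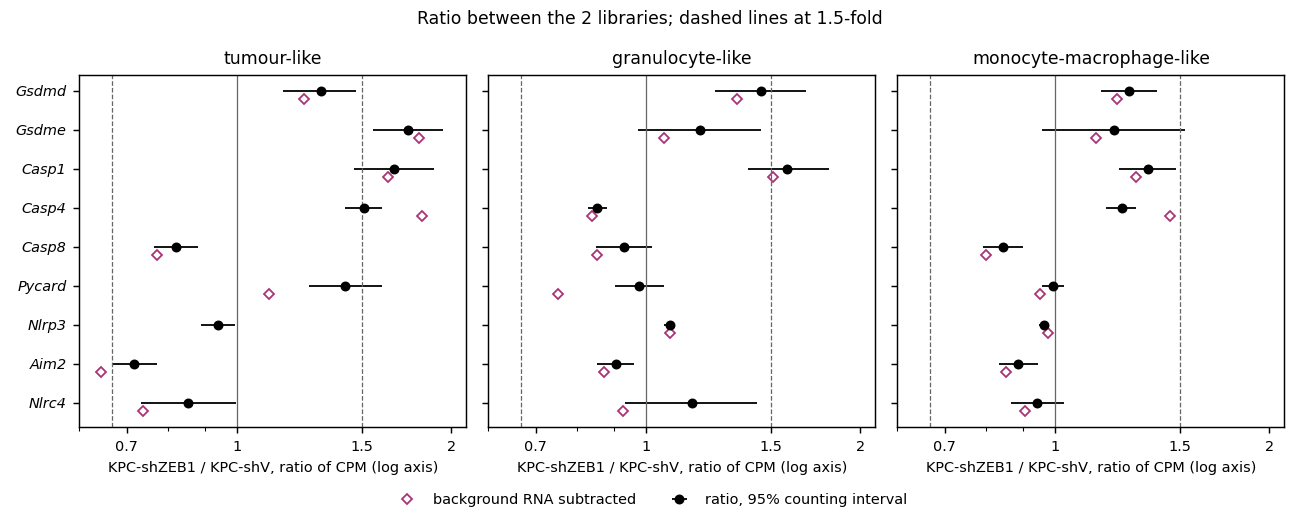
Ratio of the KPC-shZEB1-labelled to the KPC-shV-labelled library for each gene in tumour-like, granulocyte-like and monocyte-macrophage-like cells (log axis), with exact 95% intervals for counting error; open diamonds are ratios after subtraction of background RNA and dashed lines mark 1.5-fold. Casp1 was above 1 in all 3 classes (1.66, 1.58 and 1.35), while Casp4 was 1.51 in tumour-like and 0.854 in granulocyte-like cells.

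The next question was how the 9 genes differed between libraries within the main classes. A gene with at least 50 UMIs was counted as higher or lower past a ratio of 1.5 either way. In tumour-like cells Gsdme, Casp1 and Casp4 were past it as higher, 3 of 9 members, where 12.1% of 14417 genes were higher. No member was past it as lower, where 3.62% of genes were, but Aim2 was with background subtracted (0.644) and with no upper limit on UMIs (0.648). Casp4, at 1.51, lay at the limit and was past it in 5 of 15 other settings, Gsdme in 9 and Casp1 in 14. The median log2 ratio of the members was 0.37, with 1 CPM added, against 0.05 for all genes tested, and fell to 0.14 with background subtracted, 0.15 with the Prg4-Grem1 cluster included and 0.11 as a mean over cells. In granulocyte-like cells Casp1 alone was higher, 1 of 9, beside a background of 22.2% of 12468 genes, and none was lower, beside 2.90%. All genes of this class leaned to the KPC-shZEB1-labelled library with a median log2 ratio of 0.24, and relative to it the Casp1 ratio was 1.34. The members' median there was 0.10, and -0.09 with background subtracted. In monocyte-macrophage-like cells none of the 9 was higher, beside 8.49% of 13686 genes, and none lower, beside 1.70%, with a members' median of -0.01 and 0.04 for all genes. These are descriptions of 2 libraries, and the share in granulocyte-like cells was under the background.

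Tumour-like cells fell into 3 clusters that carried the gene levels unequally. The largest, led by Ifi202b and Prl2c3, had 665 and 682 cells with a median of 27374 UMIs. In it Gsdmd was at 22.3 and 33.0 CPM, a ratio of 1.48 (1.31–1.68), Casp1 at 16.8 and 25.5 CPM, 1.51 (1.31–1.75), and Pycard at 13.9 and 23.8 CPM, 1.71 (1.47–2.00). The background of Pycard estimated for tumour-like cells as a whole, 11.7 and 19.4 CPM, was close to its level in this cluster. Casp4 (84.2 and 103 CPM, ratio 1.22) and Gsdme (20.7 and 25.0 CPM, ratio 1.20) differed less there, and Aim2 was lower at 75.8 and 60.3 CPM, a ratio of 0.796 (0.736–0.861). The second cluster, of few UMIs (313 and 319 cells, median 2247), had Pycard at 124 (105–147) and 93.1 (77.8–111) CPM, and its intervals did not meet those of the largest cluster. The third was led by Ralyl and came almost wholly from the KPC-shZEB1-labelled library, with 9 and 223 cells. In that library it held 68.5 (62.6–74.9) CPM of Gsdme and 195 (185–206) of Casp4, and only 26.0 of Casp8, 33.8 of Aim2 and 2.39 of Nlrc4. Its levels of Gsdmd (16.4 CPM), Gsdme, Casp4 and Casp8 were nearer to those of the Prg4-Grem1 cluster than to those of the largest tumour-like cluster.

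Leaving out the Ralyl-led cluster changed which members stood out. The ratio of Gsdme went from 1.74 to 1.20 (1.05–1.37) and that of Casp4 from 1.51 to 1.22 (1.14–1.30), both then under the fold, and Casp1 kept 1.51 (1.31–1.73). Gsdmd came to 1.48 (1.31–1.67) with 22.5 and 33.2 CPM. Casp8 came to 0.973 (0.904–1.05) and Nlrc4 to 1.08 (0.922–1.26), within counting error, and Aim2 remained lower at 0.800 (0.741–0.864). Zeb1 was at 128 and 155 CPM without this cluster, a ratio of 1.21 (1.15–1.27).

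**Figure D3:**
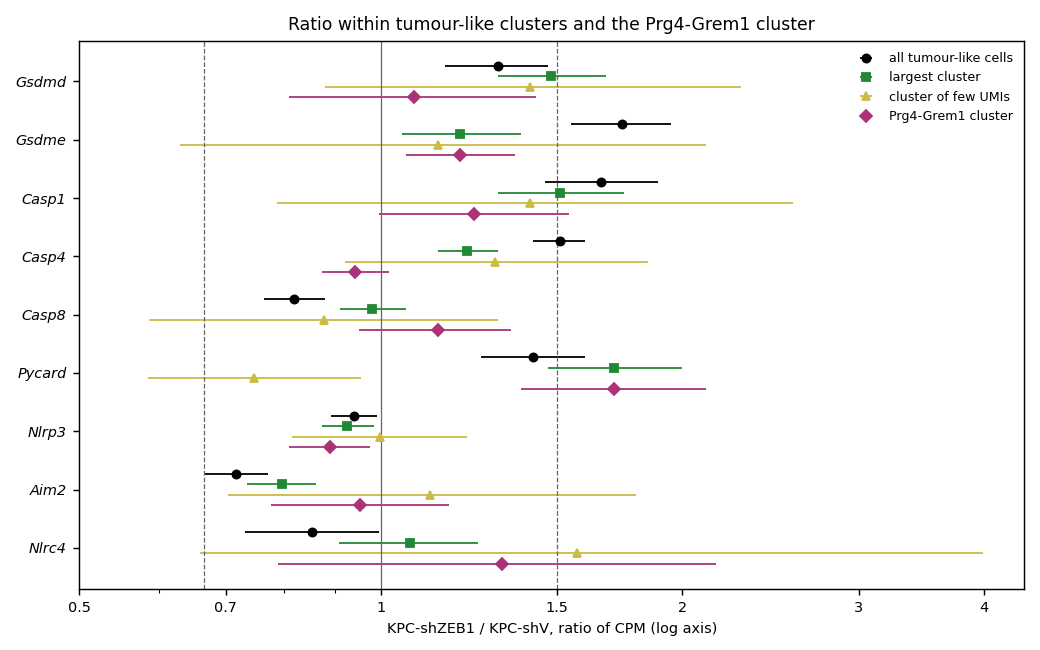
Ratio of the KPC-shZEB1-labelled to the KPC-shV-labelled library for each gene (log axis) in all tumour-like cells, the largest tumour-like cluster, the cluster of few UMIs and the Prg4-Grem1 cluster; bars are exact 95% intervals for counting error and dashed lines mark the 1.5-fold limits. Gsdme was at 1.74 over all tumour-like cells and at 1.20 in the largest cluster, and Pycard was at 1.71 in the largest cluster and 0.748 in the cluster of few UMIs. Pycard in the largest cluster (13.9 and 23.8 CPM) was close to the background estimated for tumour-like cells (11.7 and 19.4 CPM).

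For Nlrp3 and Aim2 the granulocyte-like clusters differed more among themselves than between libraries. Nlrp3 was at 3131 and 3492 CPM in the cluster led by Il1bos, Il23a and Hdc, at 3103 and 3311 in the one with Ccl3, and at 2516 and 2591 in the one led by Siglecf. It was at 937 (897–978) and 902 (832–976) CPM in the cluster led by Ccnf with the hypoxia-response genes Ero1l and Bnip3. That cluster was in turn highest for Aim2, with 288 (267–312) and 301 (261–345) CPM, against 52.8 (46.1–60.1) and 55.0 (45.6–65.7) in the cluster led by Rdh12 with Retnlg. The cluster led by the interferon-induced genes Ifit1 and Rsad2 held the most Casp4, 711 (679–745) and 730.2 (675–788) CPM, Casp1, 37.5 (30.4–45.8) and 61.0 (46.0–79.4) CPM, and Casp8, 112 (99.2–126) and 129.8 (107–156) CPM, among the 7 granulocyte-like clusters. Casp1 was above a ratio of 1 in 5 of 5 clusters with enough UMIs, from 1.05 to 1.78. Aim2 was above 1 in 5 of 6 clusters, from 0.956 to 1.08, although the class ratio was 0.907, which turned to 1.03 with clusters weighted equally in both libraries. The Ccnf-led cluster, with the most Aim2, had 912 and 295 cells. Casp4 was above 1 in 2 of 7 clusters and lowest in the Siglecf-led one, at 0.774 (0.725–0.827).

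Monocyte-macrophage-like cells formed 3 clusters. Pycard was highest in the cluster led by Chil3, Arg1 and Ccr2, at 318 (304–332) and 346 (331–362) CPM, which also had the most Casp8, 84.2 and 69.1 CPM. Nlrc4 was highest in the cluster led by Fcna with Folr2 and Lyve1, genes of resident macrophages, at 58.4 (52.4–65.0) and 51.8 (47.0–56.9) CPM. The same cluster had the most Casp4, 151 (141–162) and 219.6 (209.7–229.9) CPM, with library ratios of 1.45 (1.34–1.58) for Casp4, 1.68 (1.36–2.08) for Casp1, 1.92 for Gsdme and 0.817 (0.788–0.847) for Nlrp3. Over the whole class Gsdme was little above its estimated background (4.85 and 5.84 against 3.87 and 4.73 CPM), and the part of free RNA in its ratio was not tested. Aim2 was lowest by library ratio in the Chil3-led cluster, at 0.781. In the Mmp12-led cluster, the largest with 558 and 1263 cells, Nlrp3 was nearly level at 897 and 919 CPM.

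**Figure D4:**
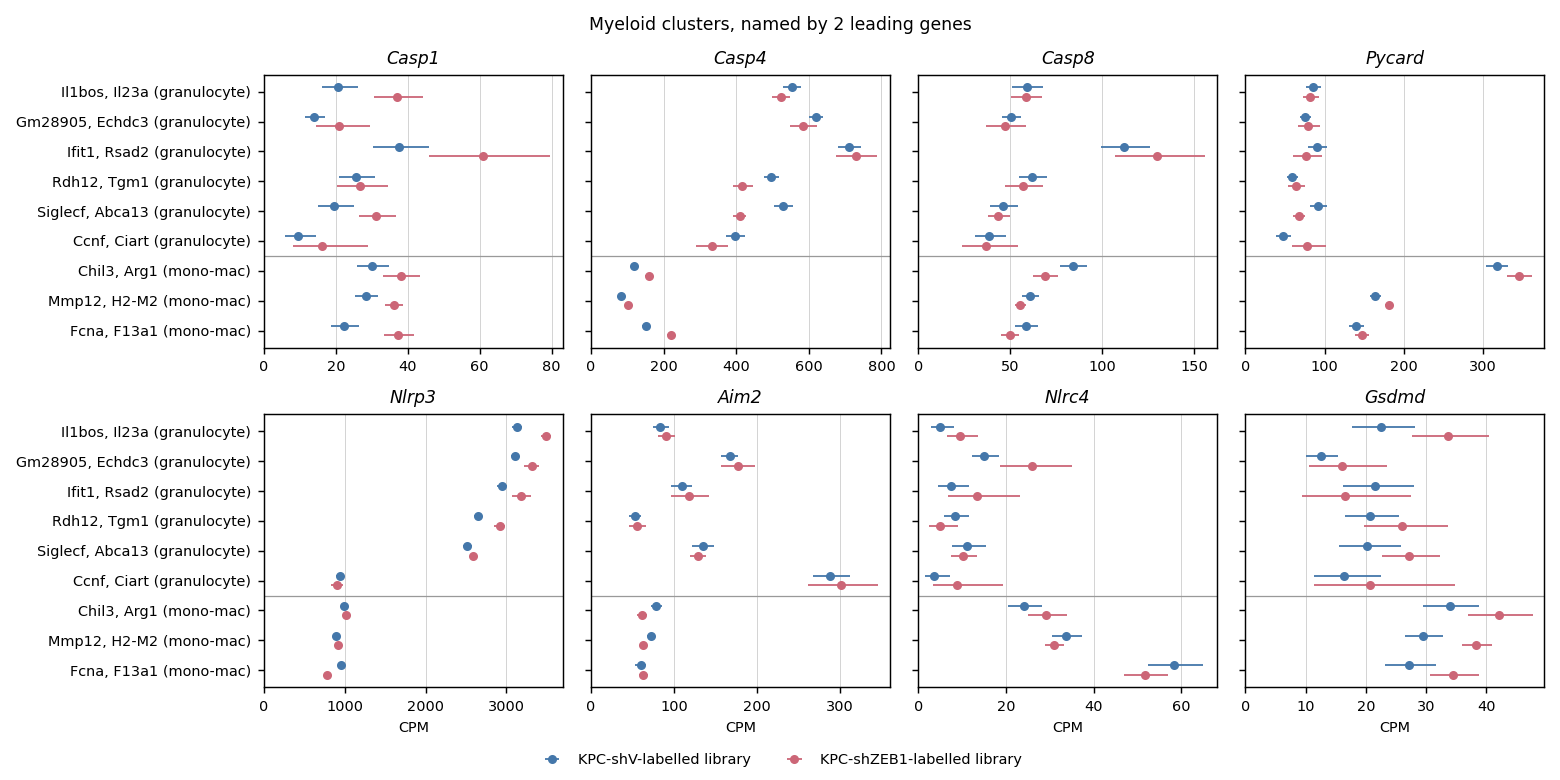
Level of 8 of the genes (CPM; Gsdme is left out) in the granulocyte-like (upper) and monocyte-macrophage-like (lower) clusters with at least 200 cells, by library, with exact Poisson 95% intervals. The Ccnf-led granulocyte-like cluster was the lowest of its class for Nlrp3 (937 and 902 CPM) and the highest for Aim2 (288 and 301 CPM).

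Detection of a whole pathway in 1 cell depended on depth. A UMI of a sensor, Pycard, Casp1 and Gsdmd was found together in 11.2% (9.67–12.8) and 15.9% (14.5–17.4) of monocyte-macrophage-like cells, and in 3.85% (2.74–5.25) and 9.72% (8.12–11.5) of tumour-like cells. In granulocyte-like cells, with medians of 3147 and 2908 UMIs, it was 0.131% and 0.208%. Median depths were 13263 and 14413 UMIs in monocyte-macrophage-like and 18794 and 22852 in tumour-like cells. At an equal depth of 1000 UMIs all 4 are too rare to compare. Nlrp3 and Pycard together remained in 7.57% and 8.55% of thinned monocyte-macrophage-like cells and 4.81% and 4.86% of granulocyte-like cells. The shares in thinned tumour-like cells, 0.709% and 0.817%, were not above those of B-like cells within counting error, and are read as background. B-like cells, whose Nlrp3 was not above its background, had 0 of 289 thinned cells in the KPC-shV-labelled library, which allows up to 1.04%, and 0.734% (0.336–1.39) in the other. Background also enters the tumour-like shares before thinning: Nlrp3 was not above it in that class, and for Pycard it was 11.7 of 20.3 and 19.4 of 28.8 CPM. The sensor in those shares could also be Aim2 or Nlrc4. These were above their background in tumour-like cells, Aim2 with 72.7 and 52.2 against 10.7 and 12.2 CPM. How much of the shares before thinning is background was not tested.

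The other genes most alike in pattern over the 25 clusters, among 11182 compared, were Ccr1 (r = 0.99), Igsf6 (0.98) and Cd14 (0.98) for Nlrp3. Casp4 ran with Nfkbia (0.92), Optn (0.92) and Ier5 (0.90), and Pycard with Cyth4 (0.82), Itgb2 (0.82) and Evi2a (0.80). Gsdme ran with Fhod3 (0.85), Col4a5 (0.84) and Fstl3 (0.83), and Aim2 with Fgd3 (0.84), Smndc1 (0.83) and Clk4 (0.83). For Gsdmd (Grk3, 0.78), Casp1 (Ctbs, 0.74), Casp8 (Parp14, 0.70) and Nlrc4 (Gm16014, 0.76) the likeness was weaker. Among the members themselves, Gsdmd and Nlrc4 had r = 0.58, Aim2 and Casp8 0.56, and Pycard and Gsdme -0.58.

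The wider pathway was read from 7 lists of 63 genes, 59 of which had a row in the tables. Among the lists with more than 3 genes measured, inducers of inflammasomes had the highest medians. Of 12 inducer genes measured, 9 were higher in tumour-like cells, 9 in granulocyte-like and 4 in monocyte-macrophage-like cells, with medians of 0.95, 0.87 and 0.29 on the log2 scale and none lower. Over all genes tested 12.1%, 22.2% and 8.49% were higher in these classes. Guanylate-binding proteins, interferon-induced GTPases that open bacterial membranes, led the list in tumour-like cells: Gbp5 (14.0 and 41.7 CPM) had a ratio of 2.99 (2.62–3.41) and Gbp2 (120.0 and 309.8 CPM) one of 2.58 (2.47–2.70). In granulocyte-like cells Gbp3 was at 25.3 and 67.3 CPM (2.66) and Gbp5 at 129 and 338 (2.62), and in monocyte-macrophage-like cells Gbp5 was at 41.5 and 92.0 CPM (2.21). None of the 9 members reached such a ratio in these classes.

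Sensors outside the 9 members were mixed. In tumour-like cells 3 of 11 were higher, beside 12.1% of all genes: Nlrp10 (ratio 2.17), Nlrp1b (2.04) and Nod1 (1.52), of which Nlrp10 was under 2 CPM in both libraries. Nlrp1b was at 1.88 and 3.84 CPM there, against 50.5 and 60.6 CPM in monocyte-macrophage-like cells. The part of free RNA in its tumour-like ratio was not tested. In granulocyte-like cells 4 of 10 were higher, beside 22.2%, with Nlrp1a at 3.42 and 8.89 CPM (2.60) and Nlrp1b at 16.2 and 33.8 CPM (2.09). Naip1, Naip2, Naip5 and Naip6, the partners of NLRC4, had tumour-like ratios of 0.839, 0.991, 1.02 and 1.14.

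Cytokines and death-receptor partners completed the lists. Il1b, the main cytokine released, was at 16829.9 and 17164 CPM in granulocyte-like, 4765 and 4253 in monocyte-macrophage-like and 690.0 and 629 in tumour-like cells. The tumour-like level was near that of T-like (635 and 662 CPM) and B-like cells (560.1 and 663 CPM). How much of it is free RNA was not tested. Il18bp, a decoy for IL-18, had 8.17 and 16.6 CPM in tumour-like cells with a ratio of 2.03 (1.70–2.44), and was the only one of 5 cytokine genes past the fold in them. Ripk3, the necroptosis kinase, was at 1.24 and 4.41 CPM (3.57, 2.31–5.72), 1 of 8 in its list, a share close to the 12.1% of all genes. The gasdermin list gave 1 gene with enough UMIs in tumour-like cells, Ninj1, which ruptures the membrane after the pore forms, at 72.8 and 62.0 CPM. Of the granzyme list, Gzma (2.67 and 10.5 CPM, 3.95) and Prf1 (0.594 and 2.30 CPM, 3.87) were higher in tumour-like cells. Gzma and Prf1 are genes of cytotoxic lymphocytes, and T cell markers summed to 26.5 and 64.7 CPM in tumour-like cells with 10 of 10 higher and none at 0; their part was not tested.

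**Figure D5:**
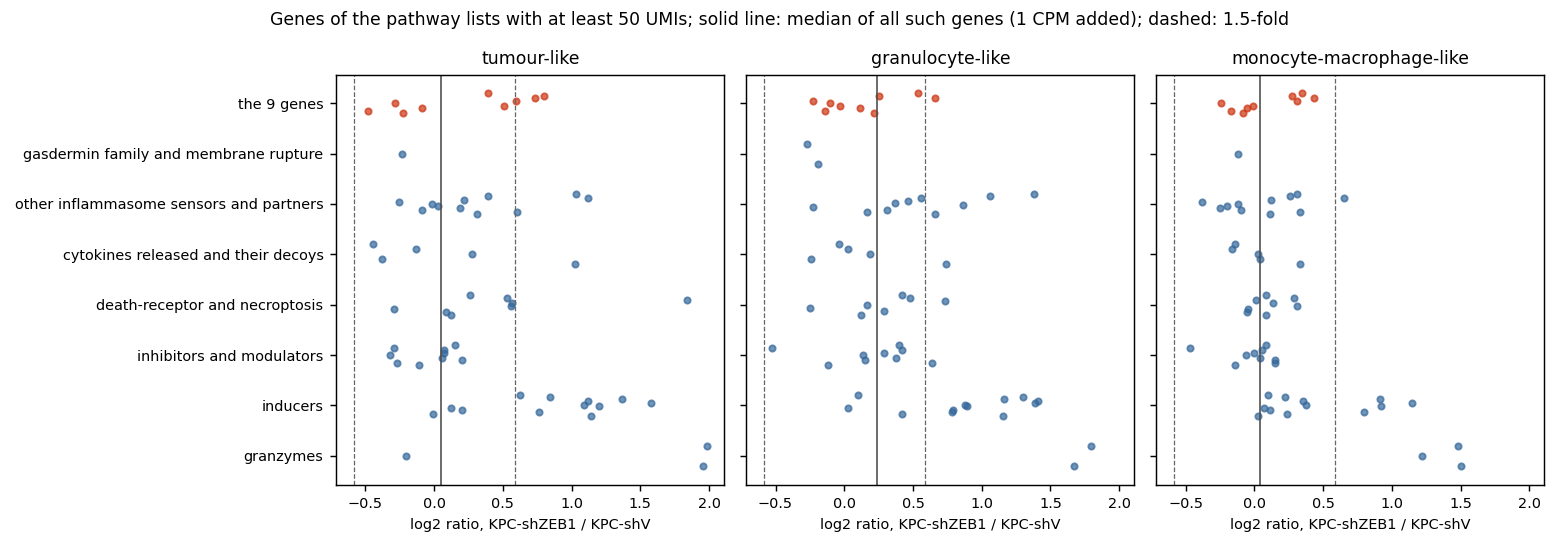
Log2 ratio of the KPC-shZEB1-labelled to the KPC-shV-labelled library for genes with at least 50 UMIs in each pathway list, by class; each point is a gene, and the solid line is the median of all such genes with 1 CPM added. The inducers lie furthest to the right in tumour-like and granulocyte-like cells among lists with more than 3 genes, with medians of 0.95 and 0.87.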

How the data were processed

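UMI counts per gene and cell barcode were deposited for both libraries as filtered matrices. Per the submitters' processing notes they come from Cell Ranger 7.0.1 and mm10. Barcodes were kept if they had 500 or more genes, a total between 1000 and 60000 UMIs, and a mitochondrial share of 15% or less, which removed 289 and 217 barcodes over the upper limit. Cells with a Scrublet score above 0.2 were removed as doublets (2.69% and 2.76%). Both libraries were clustered together with scanpy 1.11.5 on 3000 variable genes and 30 components, by Leiden clustering at resolution 1, giving 27 clusters named from marker lists. UMIs were summed by class and library and divided by the class total (CPM). Outside the 10 classes were 66 and 400 cells. Background RNA was estimated from genes a class should lack. Scripts were tested on simulated data. With 1 library per group no p-value was computed, intervals cover counting error only, and libraries held 130941086 and 143461224 UMIs. The members, lists and rules were chosen with earlier results of these data known. All 9 members are named, with up to 5 pathway genes per direction past the fold of 1.5 and the 3 genes most alike in pattern. A further list of related genes is not reported here. Alternatives to the filters, clustering, naming, scaling and background were tried.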

Additional observations from a re-analysis of the deposited data

Results flagged for a closer look

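Casp4 moved in opposite directions in different classes: the ratio of the KPC-shZEB1-labelled to the KPC-shV-labelled library was 1.51 in tumour-like cells and 0.854 in granulocyte-like cells. The size of the tumour-like ratio depended on the clusters counted. It was 1.22 without the Ralyl-led cluster and 1.11 with the Prg4-Grem1 cluster included. Nlrp3 had a ratio of 1.08 in granulocyte-like cells, or 0.911 relative to the median of all genes there, and 0.633 in endothelial-like cells, where its level was not above the estimated background. With 1 library per group the differences between classes were not tested.

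Some values lay outside the cells compared. In barcodes above the upper UMI limit, 289 and 217 in number, Casp1 had a ratio of 1.53 and Pycard 1.56. In the 66 and 400 cells outside the 10 classes, Casp1 had a ratio of 2.99 from 5 and 43 UMIs, Pycard 1.82, Nlrp3 2.99 at 316 and 946 CPM, and Aim2 1.57. Of these cells, 21 and 290 were in a cluster led by the acinar genes Pnliprp1 and Reg1, which held 761 and 1828 CPM of Nlrp3. No background was estimated for this cluster. Whether its Nlrp3 came from acinar cells, free RNA or admixed granulocytes was not tested.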

How the results depend on the processing

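The values rest on 1 library per group and on clusters rebuilt from markers. No paired analysis was possible because each group had 1 library. Of the ratios of single genes under alternative settings, 1035 stayed within their counting interval, 82 moved further, and 0 of those past the fold changed direction. In tumour-like cells, 3 members were past the fold, and 1 was with each library clustered alone, 1 without clusters mostly of 1 library and 1 with clusters weighted equally in both libraries. Of 15 other settings, Casp4 was past the fold there in 5, Gsdme in 9 and Casp1 in 14, the exception for Casp1 being 1.45 with each library clustered alone. The members' median log2 ratio in tumour-like cells, 0.37, became 0.20 with at least 200 genes and 500 UMIs, 0.14 with background RNA subtracted, 0.11 as a mean over cells and 0.15 with the Prg4-Grem1 cluster included. In granulocyte-like cells the 1 member past the fold became 0 relative to the median ratio of the class, and the median, 0.10, became -0.09 with background subtracted and -0.13 relative to the class. In monocyte-macrophage-like cells the median, -0.01, became 0.12 with clusters weighted equally. Equal weighting and inclusion of the Prg4-Grem1 cluster were chosen after seeing the data. Over all settings the tumour-like ratio ran from 1.45 to 1.92 for Casp1, 1.15 to 1.80 for Gsdme, 1.11 to 1.82 for Casp4 and 1.02 to 1.82 for Pycard. The cause of each shift was not tested.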
